A study of Rattus norvegicus with 4 samples.

Results

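The ISG15 conjugation pathway was followed as 5 genes, Isg15, Uba7, Ube2l6, Herc6 and Usp18, in cultured rat hippocampal neurons after knockdown of Gld2. Members were the genes whose symbol in the platform's probe annotation was exactly one of these names, and each had 1 probe set, so the 5 were found among 14497 genes with a single symbol and 28826 probe sets in all. The tested cultures received an shRNA against Gld2 (2 cultures) and the controls a scrambled shRNA (2 cultures), all primary hippocampal neurons of embryonic rats. The series profiled their poly(A) RNA, released by heat from poly(U) Sepharose, on 1 whole-transcript Affymetrix array per culture. Strain, embryonic age, the number of hairpins per group, the time after transduction and the number of preparations were not found in the labels, and cultures without any shRNA were not analysed here. The replicates are therefore treated as separate cultures, and p-values rest only on the spread between them, which may be partly technical. In limma each gene's own spread is joined with that of all genes.

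ISG15 is a small protein with a pair of ubiquitin-like domains that is made in response to type I interferon and is attached to other proteins much as ubiquitin is. UBA7 (the E1) activates it, UBE2L6 (the E2) carries it, and a HERC ligase (the E3) passes it to its targets, HERC5 being the main one in human cells and HERC6 in mouse. USP18 removes ISG15 from its targets and, apart from that activity, binds the interferon receptor subunit IFNAR2 and dampens signalling. In the brain, neurons and glial cells make these genes' products during viral infection and after exposure to interferon.

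All 5 genes of the pathway rose in the Gld2 shRNA cultures. Isg15, Usp18 and Herc6 were 10.9-fold, 10.7-fold and 9.29-fold higher, and Uba7 and Ube2l6 were 2.79-fold and 2.44-fold higher, by limma with Benjamini-Hochberg adjustment over 14497 genes at a threshold of 0.05. At the same threshold 1.69% of all genes were higher (245 genes) and 2.41% lower (349 genes). The 5 genes were chosen with earlier results of these data known, so their count is not independent of these values. The values are log2 intensities summarised per probe set by RMA, and every difference below is the Gld2 shRNA mean less the scrambled shRNA mean on that scale. Since the RNA was selected by its tail, a change in the amount of a transcript and a change in its recovery cannot be told apart, nor can more cells that make a transcript and more of it per cell.

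Array medians ran from 8.41 to 8.48. As to the labelled cell type, the means of 7 neuron markers lay above 88.0% (Neurod2) to 99.6% (Snap25) of all probe set means in the Gld2 shRNA cultures, and above 88.5% to 99.6% in the scrambled shRNA cultures. Some glial markers reached as far. The Gld2 shRNA means of the astrocyte genes Gfap, Slc1a3, Aqp4 and Slc1a2 lay above 99.6%, 99.2%, 98.6% and 96.9%. That of the oligodendrocyte-lineage gene Olig1 lay above 96.7%, so this measure does not single out neurons. Of the measured markers, 7 of 7 neuron, 6 of 7 astrocyte, 1 of 5 oligodendrocyte and 0 of 9 microglia genes reached the median level of all genes. The targeted gene Tent2, the current symbol of Gld2, had log2 values of 9.50 and 9.35 in the Gld2 shRNA cultures, against 10.73 and 10.67 in the scrambled shRNA cultures, a difference of -1.28 (adjusted p = 0.000754, limma) in the direction of the labels. How many genes passed varied with the culture left out. Without Gld2 shRNA replicate 1 there were 1283 higher and 1406 lower, without Gld2 shRNA replicate 2 there were 172 and 99, without scrambled shRNA replicate 1 there were 82 and 3, and without scrambled shRNA replicate 2 there were 85 and 7. Centring the arrays on their medians gave 558 higher and 1367 lower. In each of these 5 fits all 5 pathway genes stayed past the threshold and higher.

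Isg15, the modifier itself, had log2 values of 11.55 and 11.51 in the Gld2 shRNA cultures, against 7.94 and 8.23 in the scrambled shRNA cultures. The groups lay 3.27 apart at their nearest values, while the replicates differed by 0.0401 and 0.295 within the groups. Isg15 was thus higher by 3.44 (standard error 0.104, adjusted p = 4.6e-05), and the 95% confidence interval of limma ran from 3.18 to 3.70. In fold, the interval runs from 9.09 to 13.0.

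Uba7, which activates ISG15 with ATP and hands it to the E2, reached 10.27 and 10.19 in the Gld2 shRNA cultures, against 8.76 and 8.74 in the scrambled shRNA cultures. The scrambled shRNA values were closer together than those of any other gene of the pathway, 0.0247 apart. The difference was 1.48 with a standard error of 0.0627 and an interval from 1.33 to 1.63 (adjusted p = 0.000180).

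Ube2l6, the E2 that carries ISG15, had 9.61 and 9.51 in the Gld2 shRNA cultures, against 8.30 and 8.23 in the scrambled shRNA cultures. Its difference, 1.29 with a standard error of 0.0682 and an interval from 1.12 to 1.46, was the smallest of the 5 (adjusted p = 0.000491). The gap between the groups was still 1.21, against 0.101 and 0.0655 within them.

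Herc6, the ligase, had 10.79 and 10.61 in the Gld2 shRNA cultures, against 7.56 and 7.41 in the scrambled shRNA cultures. The difference was 3.22 with a standard error of 0.0896, in fold an interval from 7.98 to 10.8, and its adjusted p of 3.2e-05 was the smallest of the 5. The groups lay 3.05 apart at their nearest values, against 0.171 and 0.159 within them.

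Usp18, the protease and receptor inhibitor, had 11.95 and 11.87 in the Gld2 shRNA cultures, against 8.32 and 8.66 in the scrambled shRNA cultures. The control values were 0.341 apart, the widest spread within a group among the 5 genes. The difference was 3.42 with a standard error of 0.117 and an interval from 3.13 to 3.71 (adjusted p = 7.7e-05).

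For each of the 5 genes both Gld2 shRNA cultures lay above both scrambled shRNA cultures, a pattern that 24.0% of all genes shared. The median absolute difference over all genes was 0.109, beside 1.29 to 3.44 for these 5. In order of the difference among 14497 genes, Isg15 was number 9, Usp18 number 11, Herc6 number 13, Uba7 number 49 and Ube2l6 number 61. The means of the 5 probe sets lay above 68.5% to 95.4% of all probe set means in the Gld2 shRNA cultures and above 32.3% to 55.3% in the scrambled shRNA cultures. No detection calls came with the values, so how far the control values stood above background is not known here.

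**Figure D1:**
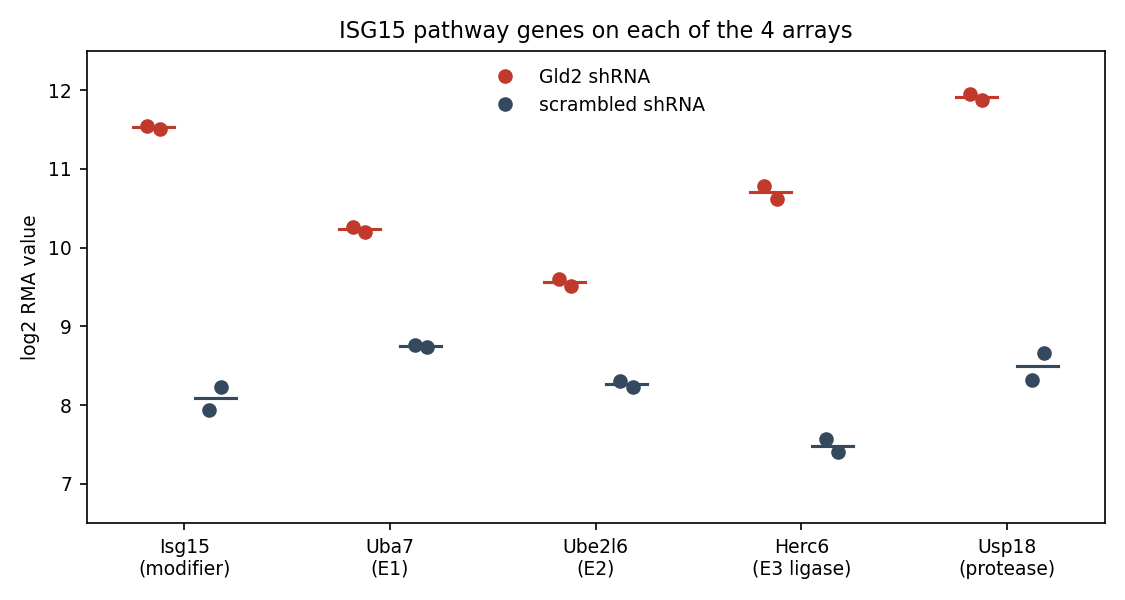
Log2 RMA values of the 5 ISG15 pathway genes on each array, with Gld2 shRNA cultures left of scrambled shRNA cultures, points for single cultures and bars for group means (2 cultures each). In no gene do the groups overlap, and the smallest gap, that of Ube2l6, is 1.21. Levels of different genes come from different probes and are not comparable.

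The 5 differences fell into a larger and a smaller class. Over the 4 ways of setting a Gld2 shRNA culture against a scrambled shRNA culture, the difference of Isg15 exceeded that of Uba7 by 1.78 to 2.14 and that of Ube2l6 by 1.94 to 2.36. For Usp18 the excess over Uba7 was 1.75 to 2.13 and over Ube2l6 1.92 to 2.35. For Herc6 it was 1.62 to 1.85 over Uba7 and 1.84 to 2.01 over Ube2l6. The modifier, the ligase and the protease thus had larger log2 differences than the E1 and the E2 in every such pairing. The pairings reuse the same cultures, and the classes were drawn from these values. Each gene was read by 1 probe set of its own, and how far probe response shaped the sizes was not tested.

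Inside each class the order was less clear. Isg15 and Usp18 differed by 0.0183, with single pairings from -0.0247 to 0.0614, so their order turns with the pairing. Against Herc6, Isg15 ran from -0.0678 to 0.518 and Usp18 from -0.0887 to 0.502, which also spans 0. Uba7 stayed above Ube2l6 in all 4 pairings, by 0.156 to 0.225. These 10 pairs of genes were compared as descriptions without a p, because an exact permutation test of 2 against 2 cultures cannot go below 0.333.

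The order of the replicates was also described, without its share over all genes. In the Gld2 shRNA cultures, replicate 2 was the lower of the cultures for each of the 5 genes, by 0.0401 (Isg15) to 0.171 (Herc6). The scrambled shRNA cultures had no such order, since replicate 2 was the higher one for 2 genes, Isg15 and Usp18, and the lower one for Uba7, Ube2l6 and Herc6. Measured from the scrambled shRNA mean, the differences were 3.46 and 3.42 for Isg15 in Gld2 shRNA replicates 1 and 2, and 3.46 and 3.38 for Usp18. For Herc6 they were 3.30 and 3.13, for Uba7 1.52 and 1.44, and for Ube2l6 1.34 and 1.24. Mean levels of lists described below also moved from Gld2 shRNA replicate 1 to 2. They fell for other E1 (10.65 to 10.60), Herc (10.52 to 10.40) and Usp genes (10.03 to 9.94). They rose for other modifiers (10.75 to 10.78) and Ube2 genes (11.25 to 11.26). A lower replicate 2 was thus not particular to the 5 genes.

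The equivalent genes of the other ubiquitin-like systems were described next, tier by tier, to show where the ISG15 enzymes differ from their relatives. Of 13 genes for ubiquitin and other modifiers, 8 were measured, 0 passed in limma after Benjamini-Hochberg adjustment in either direction, and 0 reached an unadjusted p under 0.05, where 9.24% of all genes were higher and 16.2% lower. Their median difference was 0.09, beside a median of -0.02 over all genes and 3.22 over the 5 pathway genes. Ubd, which encodes the interferon-inducible modifier FAT10, had the highest value of the 8. Its log2 value averaged 8.11 ± 0.154 in the Gld2 shRNA cultures and 7.88 ± 0.108 in the scrambled shRNA cultures (SD, n = 2 each; limma difference 0.23, interval -0.01 to 0.46, adjusted p = 0.212). That interval lies wholly below the interval of Isg15. Urm1 and Atg12, a modifier of sulfur transfer and one of autophagy, were at 0.12 each (adjusted p = 0.304 and 0.360, limma).

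Of 9 E1 genes for the other modifiers, 8 were measured and 0 passed in limma, with 1 at an unadjusted p under 0.05 and a median of -0.08. Uba1, the main E1 of ubiquitin, had 12.71 and 12.70 in the Gld2 shRNA cultures, against 12.72 and 12.72 in the scrambled shRNA cultures, a difference of -0.02 with an interval from -0.16 to 0.13. Uba6, an E1 of ubiquitin and FAT10, was at -0.28 (adjusted p = 0.124, limma), and passed, lower, in 4 alternatives (-0.38 to -0.28). Both intervals lie below that of Uba7, 1.33 to 1.63.

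At the tier of the E2 enzymes, none of 24 measured Ube2 genes other than Ube2l6 passed in limma, with 2 at an unadjusted p under 0.05, 1 in each direction, and a median of 0.03. Ube2l3, the close relative of Ube2l6 that serves ubiquitin, had 12.65 and 12.68 in the Gld2 shRNA cultures, against 12.68 and 12.73 in the scrambled shRNA cultures. Its difference was -0.04 with an interval from -0.19 to 0.11, against 1.12 to 1.46 for Ube2l6. Ube2a, an E2 of DNA damage tolerance, had the smallest p of the family (difference -0.41, adjusted p = 0.0523 in limma), and passed, lower, in 5 alternatives (-0.50 to -0.41). In single alternatives the highest Ube2 value past the threshold was that of Ube2c, 0.45 without Gld2 shRNA replicate 1.

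Among ligases of the HERC family, 3 besides Herc6 were measured, of which Herc2 fell and 2 did not pass. Herc2, a giant ligase with roles in DNA repair, had 10.19 and 10.10 in the Gld2 shRNA cultures, against 10.63 and 10.55 in the scrambled shRNA cultures (difference -0.45, adjusted p = 0.0317, limma). Herc3 and Herc4 were at -0.17 and -0.02, and Herc3 passed, lower, with a level-dependent prior variance (adjusted p = 0.0249, limma). Herc2 lost its call with all probe sets tested. The fall of Herc2 was not past the threshold without Gld2 shRNA replicate 2 or without either scrambled shRNA culture, and its value ran from -0.49 to -0.37 over the alternatives.

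Of 39 measured Usp genes other than Usp18, which encode proteases of ubiquitin for the most part, 3 fell, 0 rose and 36 did not pass, with a median of -0.19. The share that fell stands beside the 2.41% of all genes that were lower. In limma at an unadjusted p under 0.05, 19 were lower and 1 higher, beside 16.2% and 9.24% of all genes. The higher one was Usp25 (difference 0.30, adjusted p = 0.0730, limma). It passed, higher, with a level-dependent prior variance, without genes under the 25th percentile or the median level, with cyclic loess (0.38) and with median centring (0.27). Those settings had 3 to 15 lower genes of the family. Usp13, which can also react with ISG15, had 9.19 and 9.05 in the Gld2 shRNA cultures, against 9.74 and 9.74 in the scrambled shRNA cultures (difference -0.62, adjusted p = 0.0125, limma). Usp31 (-0.34) and Usp42 (-0.40) were the others past the threshold, and both lost the call with all probe sets tested. All 3 lost the call without either scrambled shRNA culture, and Usp31 and Usp42 also without Gld2 shRNA replicate 2. Without Gld2 shRNA replicate 1 the family had 14 lower genes.

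**Figure D2:**
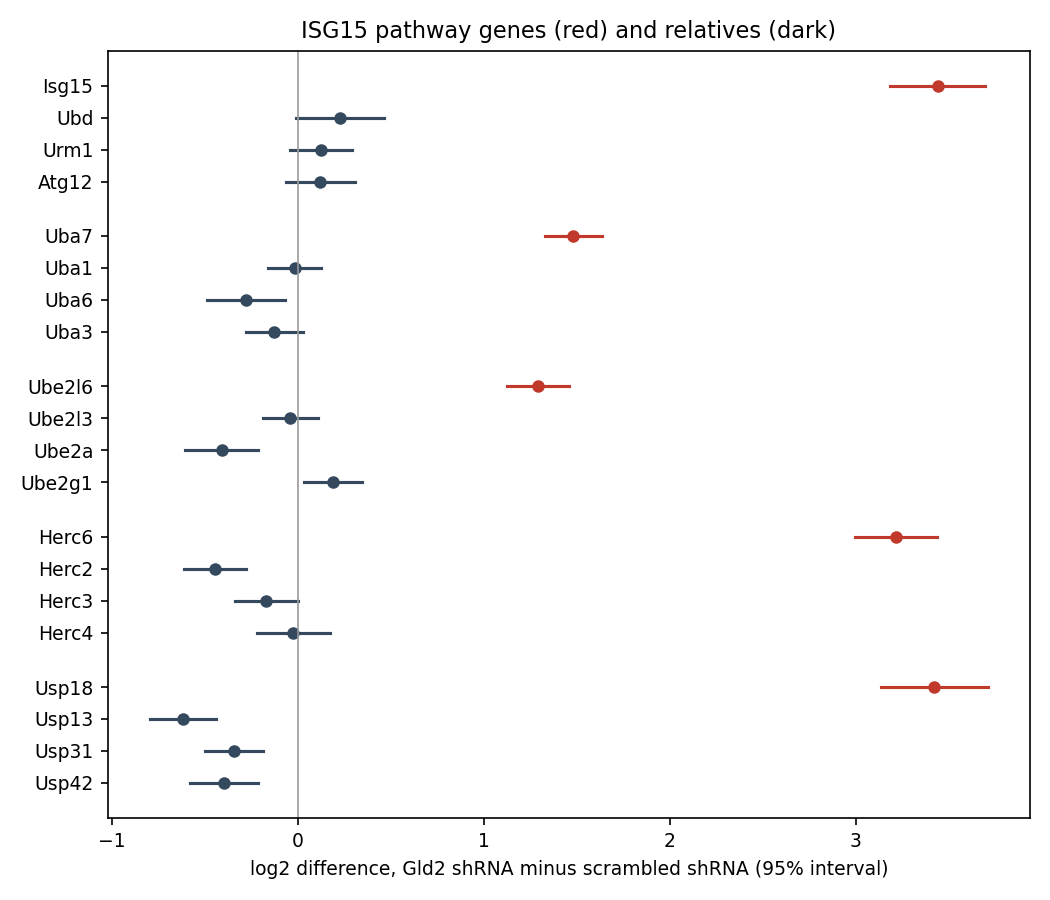
Log2 differences (Gld2 shRNA minus scrambled shRNA, 2 cultures each) with 95% confidence intervals from limma for the 5 ISG15 pathway genes, in red, each above 3 related genes of the same tier. Not all relatives are drawn. Those under Usp18 are the 3 Usp genes that fell, and Usp25 (0.30) and Ube2c (0.24) are left out. The intervals of the pathway genes lie between 1.12 and 3.71, and the highest value among the relatives shown is 0.23 (Ubd).

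Upstream of the pathway, the transcription factors of the interferon response rose with it, while the measured receptor and kinase genes did not pass. Of 11 listed genes 8 were measured, 4 rose, 0 fell and 4 did not pass, with a median of 0.80. Irf7, which drives later waves of interferon production, had 11.57 and 11.41 in the Gld2 shRNA cultures, against 8.70 and 8.68 in the scrambled shRNA cultures (difference 2.80, adjusted p = 2.7e-05, limma). Stat2 (1.43), Irf9 (1.40) and Irf1 (1.30) also rose, the first pair being parts of the factor ISGF3 that acts on interferon-stimulated genes. Their differences were close to those of Uba7 and Ube2l6.

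The interferon gene Ifnb1 and the receptor gene Ifnar1 did not pass as reported, and for Ifnb1 this depended on the setting. Ifnb1 had 6.93 and 7.19 in the Gld2 shRNA cultures, against 6.83 and 6.69 in the scrambled shRNA cultures (difference 0.30, interval 0.04 to 0.55, adjusted p = 0.159, limma). It passed, higher, with median centring (0.27, adjusted p = 0.0450) and without Gld2 shRNA replicate 1 (0.43, adjusted p = 0.0312), and in none of the other alternatives that tested it. The Ifnb1 probe set lay above 24.0% of all probe set means in the Gld2 shRNA cultures and 20.5% in the scrambled shRNA cultures. Whether it measured a signal is therefore not known. Ifnar1 was at 0.03 with an interval from -0.13 to 0.19. Jak1, a kinase of the receptor, was at -0.04, and Irf3, which can induce Isg15 without interferon, at -0.13, neither past the threshold. Tyk2 and Ifnar2, the receptor subunit that USP18 binds, were not analysed here.

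Partners of ISG15 and USP18 were mixed. Of 13 measured genes 2 rose, 2 fell and 9 did not pass, with a median of -0.03. Trim25, a ligase reported to attach ISG15 as well as ubiquitin, had 11.22 and 11.11 in the Gld2 shRNA cultures, against 9.50 and 9.45 in the scrambled shRNA cultures, and was 3.23-fold higher (difference 1.69, adjusted p = 0.000159, limma). Stat2, the adaptor that brings USP18 to the receptor in human cells, was given above. Arih1, another ligase reported to act with ISG15, went the other way with 10.84 and 10.69 in the Gld2 shRNA cultures, against 11.26 and 11.18 in the scrambled shRNA cultures (difference -0.46, adjusted p = 0.0378, limma). Its call was lost without Gld2 shRNA replicate 2 and without either scrambled shRNA culture. The call of Arih1 was also lost with all probe sets tested. Usp13, above, was the other that fell. Itgal and Itgb2, whose proteins form the LFA-1 receptor for secreted ISG15, were at 0.05 and 0.12.

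Of 21 genes whose proteins are reported to carry ISG15, 16 were measured, 4 rose, 0 fell and 12 did not pass, with a median of 0.00. Those that rose are themselves interferon-stimulated genes. Mx1, an antiviral GTPase, was at 3.71, Ifih1, a sensor of double-stranded RNA, at 2.07, Trim25 at 1.69 and Eif2ak2, the RNA-activated kinase PKR, at 1.52. Ifih1 had 10.43 and 10.30 in the Gld2 shRNA cultures, against 8.34 and 8.24 in the scrambled shRNA cultures. The other 12 ranged from -0.26 (Becn1, an autophagy gene that passed, lower, in 4 alternatives) to 0.15 (Ifit1, adjusted p = 0.325). The Ifit1 probe set lay above 8.91% of all probe set means in the Gld2 shRNA cultures and 7.69% in the scrambled shRNA cultures, so whether it measured a signal is not known. Only transcripts were measured, and the attachment of ISG15 to proteins was not.

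**Figure D3:**
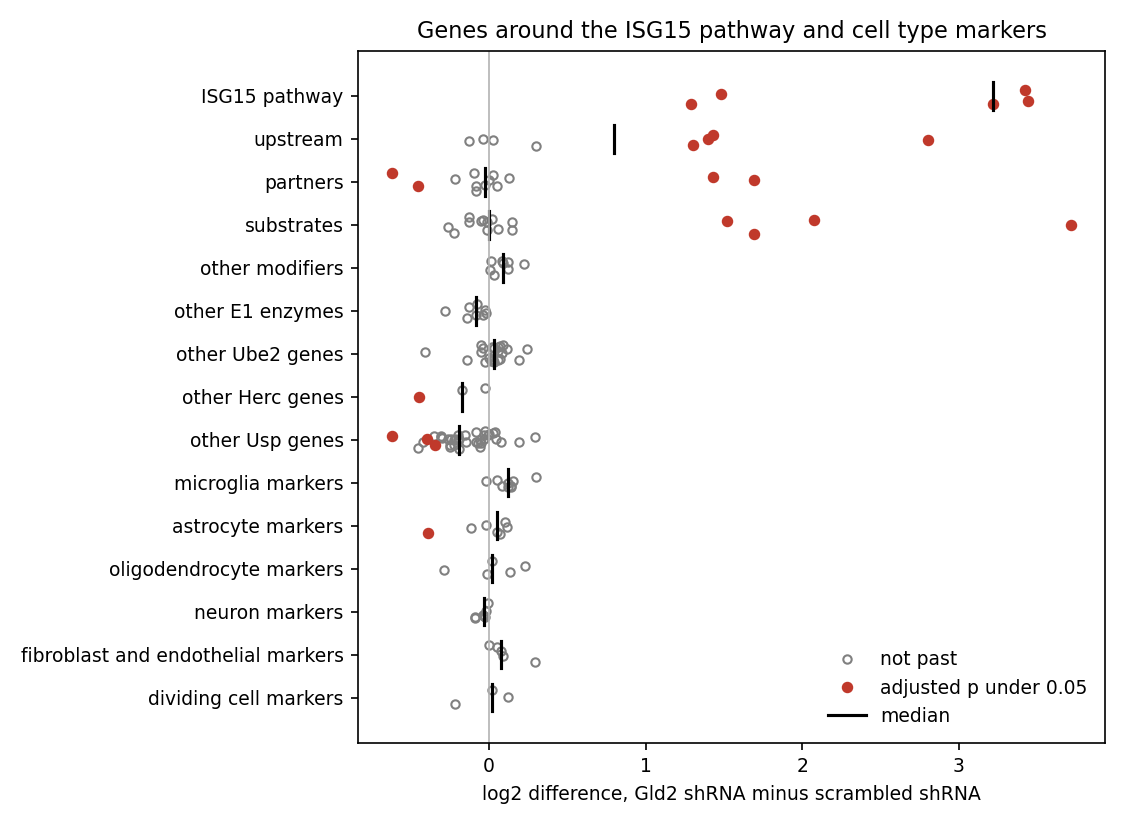
Log2 differences (Gld2 shRNA minus scrambled shRNA) of each measured gene in the lists around the ISG15 pathway and in cell type marker lists. Each point is a gene, filled where its adjusted p was under 0.05 in limma, and each bar is a list median, which is 3.22 for the pathway and between -0.19 and 0.80 for the other lists.

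Among the cell type markers 1 gene passed the threshold, the astrocyte gene Gja1. None of 9 microglia markers passed in limma (1 at an unadjusted p under 0.05), with 8 values above 0 and a median of 0.12. The mean log2 value of these markers was 7.74 and 7.84 in the Gld2 shRNA cultures, against 7.65 and 7.69 in the scrambled shRNA cultures. Of them Cx3cr1 was highest at 0.30 (adjusted p = 0.104) and Aif1, at 0.08, had 6.88 and 7.17 in the Gld2 shRNA cultures, against 6.91 and 6.98 in the scrambled shRNA cultures. Fibroblast and endothelial markers had a median of 0.08 with 0 of 5 past the threshold and 1 at an unadjusted p under 0.05. Astrocyte markers had a median of 0.05 and 1 of 7 past the threshold, Gja1, which fell (-0.39, adjusted p = 0.0351), a call lost without Gld2 shRNA replicate 2, without either scrambled shRNA culture and with all probe sets tested. The medians of the oligodendrocyte (5 measured) and dividing cell (3 measured) markers were 0.02 each. The 7 neuron markers lay between -0.09 and -0.01 and averaged 12.51 and 12.53 in the Gld2 shRNA cultures, against 12.58 and 12.54 in the scrambled shRNA cultures. Some marker calls depended on the setting. Cx3cr1 passed, higher, with median centring (0.28, adjusted p = 0.0392), and the endothelial gene Cldn5 with median centring (0.27) and without Gld2 shRNA replicate 1 (0.40). Sox10 passed, higher, without Gld2 shRNA replicate 1 (0.39), and Gfap with a level-dependent prior variance (0.10). Mbp passed, lower, in 4 alternatives (-0.35 to -0.29). The part of other cell types in the rise of the 5 genes was not tested.

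The genes with the most similar pattern over the 4 arrays were found by the Euclidean distance between log2 values, after subtraction of each gene's scrambled shRNA mean. Mx2 and Ifit2 were nearest to both Isg15 (distances 0.0772 and 0.126) and Usp18 (0.125 and 0.137). Mx2 had 11.92 and 11.90 in the Gld2 shRNA cultures, against 8.34 and 8.55 in the scrambled shRNA cultures. Herc6 had no neighbour as near, with Ifi47 at 0.207 and Ifit2 at 0.347. Irf9 (0.127) and Samd9l (0.136) were nearest to Uba7, and the complement protease genes C1r (0.0401) and C1s (0.0543) to Ube2l6. The distance mostly reflects the size of the group difference, so the nearest genes are those that rose about as much.

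Of the genes next to the 5 members on their chromosomes, 1 rose, 1 fell and 18 did not pass. In the RefSeq gene order of assembly GRCr8, the 2 nearest measured protein-coding genes on each side gave 20 neighbours, with a median difference of 0.02. Serping1, which encodes the inhibitor of the C1 complement proteases and lies directly beside Ube2l6, had 11.89 and 11.77 in the Gld2 shRNA cultures, against 10.49 and 10.38 in the scrambled shRNA cultures. Its difference of 1.39 (adjusted p = 0.000561, limma) was about that of Ube2l6, and it stayed past the threshold without each culture. Agrn, beside Isg15, fell (-0.36, adjusted p = 0.0402), a call lost without Gld2 shRNA replicate 2 or either scrambled shRNA culture. Agrn also lost its call with all probe sets tested. For Herc6 the adjacent genes Pyurf and Ppm1k were both at -0.12, and for Uba7 Traip and Inka1 were at -0.03 and 0.06. Usp18 lay between Tuba8 (0.27, adjusted p = 0.0786) and Slc6a13 (-0.29, adjusted p = 0.0709). This set of neighbours was added after the data were first seen.

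**Figure D4:**
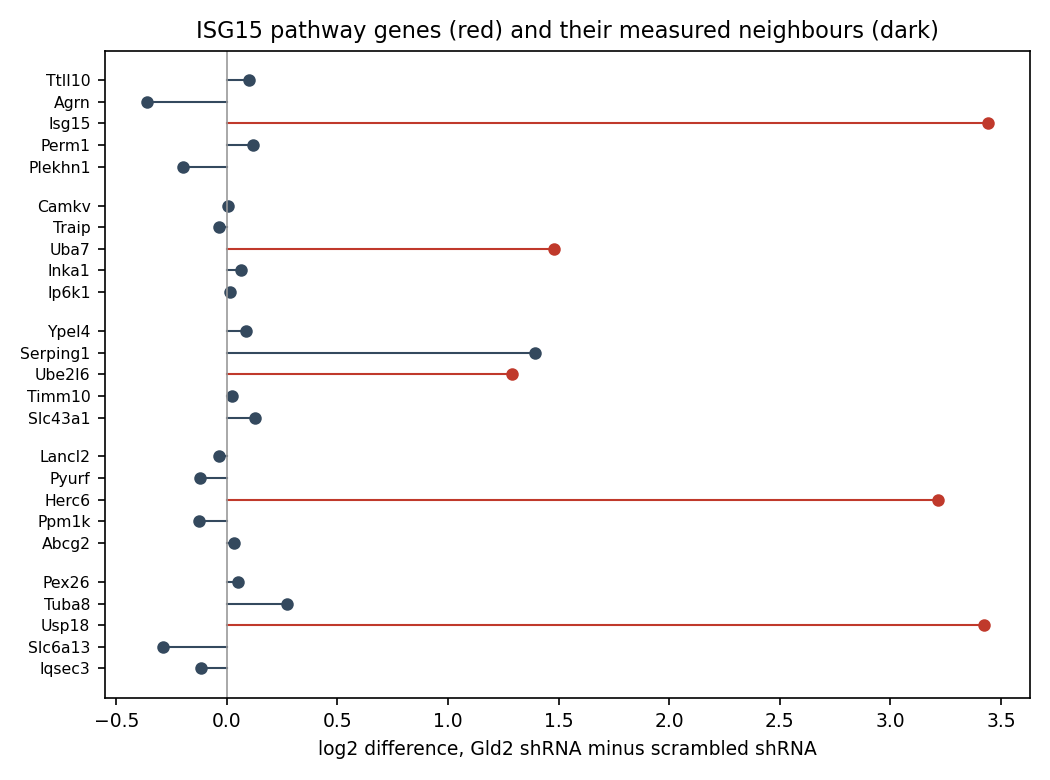
Log2 differences (Gld2 shRNA minus scrambled shRNA) of the 5 ISG15 pathway genes, in red, and of the 2 nearest measured protein-coding genes on each side in RefSeq gene order, in dark. Among the 20 neighbours Serping1 (1.39) alone is above 0.30.

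Since the genes rose together, their promoters were searched for letters known from interferon-stimulated genes. RefSeq windows of assembly GRCr8, from 250 bases before to 50 after the start site, matched 3 of the 5 genes, Uba7, Ube2l6 and Herc6. On both strands the motifs were GAAANNGAAA, the shape of the interferon-stimulated response element bound by ISGF3, and TTCNNNGAA, the shape of the gamma-activated site. The shorter core AANNGAAA, shared by interferon regulatory factors and contained in the first motif, was added after the windows had been looked at. Of 33469 windows in the table, 3.92% held the first motif, 8.87% the second and 26.4% the core.

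None of the 3 windows held GAAANNGAAA or TTCNNNGAA, and 1 held the core, that of Uba7. Among the 8 other listed genes that rose, all with a window, GAAANNGAAA was in those of 3, Irf7, Ifih1 and Eif2ak2, TTCNNNGAA in 2 and the core in 5. The 100 bases before the start site are printed for the 3 members and those 3 genes, with GAAANNGAAA or the core in capitals on either strand, so that sequences with and without the element can be set side by side. The first line is the stretch of 30 bases after the start site of Uba7 that holds its match, read on the opposite strand, at bases 38 to 45 after the start.
Uba7, chr8:117543922-117543951, plus strand: gaaccaactctgtctagTTTCACTTttggt
Uba7, chr8:117543802-117543901, plus strand: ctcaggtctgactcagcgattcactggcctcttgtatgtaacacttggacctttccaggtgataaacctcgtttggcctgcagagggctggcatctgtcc
Ube2l6, chr3:90279605-90279704, plus strand: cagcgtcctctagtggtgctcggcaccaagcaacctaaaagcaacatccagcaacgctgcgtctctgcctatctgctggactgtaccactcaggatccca
Herc6, chr4:88896994-88897093, minus strand: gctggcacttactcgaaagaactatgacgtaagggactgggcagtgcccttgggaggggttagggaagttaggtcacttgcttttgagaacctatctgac
Irf7, chr1:205800024-205800123, minus strand: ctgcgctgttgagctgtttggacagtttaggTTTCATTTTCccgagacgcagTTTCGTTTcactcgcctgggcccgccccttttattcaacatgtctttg
Ifih1, chr3:67683969-67684068, minus strand: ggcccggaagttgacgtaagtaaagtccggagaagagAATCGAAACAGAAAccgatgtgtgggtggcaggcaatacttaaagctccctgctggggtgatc
Eif2ak2, chr6:21941054-21941153, plus strand: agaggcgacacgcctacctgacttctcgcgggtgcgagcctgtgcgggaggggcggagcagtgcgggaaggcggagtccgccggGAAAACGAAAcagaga

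In Eif2ak2 the element lay 16 to 7 bases before the start site, in Ifih1 59 to 50 and in Irf7 69 to 60, the last on the opposite strand. A window without the letters says only that they are not in these bases of 1 annotated start site. Other start sites of the same genes were not searched.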

How the data were processed

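The deposited table holds log2 values of 4 arrays, which the authors made by RMA in affy, per the submitters' processing notes. Values spanned 3.23 to 14.3, as a log2 scale would. Versions, settings, the probe set definition and the genome build were not given in the sources used here. No further normalization was applied. Probe sets with 1 symbol in the platform annotation (15209) were reduced to 14497 genes by the highest mean over the arrays, and the 5 members matched RefSeq gene identifiers.

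The groups were compared across all genes with lmFit and eBayes of limma 3.58.1 (R 4.3.3). Tests were two-sided and adjusted by Benjamini-Hochberg. Residual degrees of freedom were 2, and moderation added 3.96. The fit was also run on values simulated from its own fitted spread, which checks the calculation and not its assumptions on these arrays. The alternatives concerned the prior variance, dim genes, normalization, probe sets, moderation, the replicate block and single cultures.

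The members and lists were chosen with earlier results of these data known. Genes were named as members, as up to 4 genes per list with the smallest p, as paralogs (Ube2l3, Uba1, Uba6, the Herc genes) or as the 2 genes nearest in pattern. Other names, such as the ends of a list's range, were chosen after their values were seen. Promoter windows came from RefSeq (GRCr8), in Python 3.11.15.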

Additional observations from a re-analysis of the deposited data

How the results depend on the processing

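Over 13 alternatives the differences of the 5 genes kept their direction. Leaving out each culture moved Isg15 between 3.29 and 3.59, Usp18 between 3.25 and 3.59, Herc6 between 3.13 and 3.30, Uba7 between 1.44 and 1.52 and Ube2l6 between 1.24 and 1.34. When genes below the median level were dropped, Ube2l6 and Herc6 were not tested and 3 members passed. Without moderation across genes, at differences of 3.44 (Isg15), 1.48 (Uba7), 1.29 (Ube2l6), 3.22 (Herc6) and 3.42 (Usp18), 0 members passed, with adjusted p from 0.202 to 0.215, while 5 had an unadjusted p under 0.05. In that linear model 1 gene of all was higher and 0 lower, and 0 and 0 of the 106 other list genes, with 14 and 17 at an unadjusted p under 0.05. Otherwise the largest adjusted p of a member was 0.0137, by limma with Benjamini-Hochberg adjustment.

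All genes higher numbered 621 with a level-dependent prior variance and 558 with median centring, and 82 to 1283 without single cultures. Genes lower numbered 1611 with that prior, 949 and 1287 without genes under the 25th percentile and the median level, 1367 with median centring, 116 with all probe sets tested, and 3 to 1406 without single cultures. Other list genes lower, 5 as reported, numbered 22, 14, 21, 17 and 1 in the same order, and 0 to 18 without single cultures, the 0 coming without scrambled shRNA replicate 1 (12 at an unadjusted p under 0.05) and replicate 2 (19). The replicate block on the final digits of the titles, which may share only a number, gave 233 higher and 332 lower genes and kept all 5 members past the threshold (Usp31 lost its call). Deviations of same-numbered cultures correlated at 0.143 across genes. Background correction could not be varied, since scanner signals were not used here. Signal over background is unknown, and precision is limited by the number of arrays.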
